A study of Mus musculus with 18 samples.

Results

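Hair cells (HCs) of the vestibular system were compared with the epithelial non-hair cells (ENHCs) that surround them in newborn mice. The comparison takes 6 of the 18 arrays of the series, 3 of vestibular HC and 3 of vestibular ENHC, and 12002 genes whose probes were detected on at least 2 of the 18 arrays. Cochlear HC and ENHC, 3 arrays each, served to show where the vestibular difference is its own, and the arrays of non-epithelial cells entered the fit. All mice were Atoh1/nGFP transgenics on the C57BL/6 strain at postnatal day 1 (P1), no treatment is labelled, and the GFP-negative cells carry the transgene as well. The transgene places a nuclear green fluorescent protein under Atoh1 control, so that GFP marks cells with Atoh1 activity. HC were sorted as GFP-positive cells with surface CD326, the product of the epithelial gene Epcam. ENHC were CD326-positive and GFP-negative. Each array holds RNA pooled from the inner ears of several mice, so that the spread is one between pools and not between animals.

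The vestibular system senses head movement with the cristae of the semicircular canals and the maculae of the utricle and saccule. Its hair cells carry a bundle of actin-filled stereocilia, linked at their tips to a mechanotransduction channel, and beside it a kinocilium, a true cilium with a microtubule axoneme that vestibular hair cells keep for life and cochlear hair cells lose as they mature. Deflection of the bundle opens the channel, and the depolarised cell releases glutamate at ribbon synapses. The cells without GFP include supporting cells, which secrete the otoconia, cupula and otolithic membrane over the bundles, and nonsensory cells, among them the dark cells that pump potassium into the endolymph.

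Values below are normalized signals on the linear scale, which include an added offset of 16, so that a probe with no signal reads close to 20. A probe counted as detected above a signal of 38.0 to 45.7, depending on the array. A difference is the log2 of HC over ENHC ± its standard error, with n = 3 arrays a side. A gene was called at an adjusted p under 0.05, and a gene detected on all arrays of one side and on none of the other has only a lower bound to its fold, written "at least". Such a bound is that of the probe that represents the gene, and another probe of the gene can show a smaller difference.

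Between 16709 and 18472 probes were detected on each of the 6 arrays. The first principal component held 70.0% of the variance and separated HC from ENHC, and Vestibular HC 3 lay nearer the ENHC (-54.4) than Vestibular HC 1 and 2 (-82.1 and -92.8) did. Of genes that all 3 ENHC arrays detect, 154 were detected on HC 3 and on neither other HC array, against 53 for HC 1 and 52 for HC 2. The summed signal of 15 ENHC markers was 3040, 2430 and 5650 on HC 1, 2 and 3 and 18000, 18000 and 19500 on the ENHC arrays, so HC 3 held the highest ENHC marker signal among the HC. The summed signal of 13 HC markers was 15800, 14600 and 13300 in HC and 158, 115 and 214 in ENHC, and all 13 were detected on every HC array. The summed signal of erythroid markers was highest on HC 2 at 3930, against 94.8 and 83.7 on HC 1 and 3 and 268, 116 and 173 on the ENHC arrays. The macrophage sum was highest on ENHC 1 at 963, against 75.0 and 69.5 on ENHC 2 and 3 and 236, 100 and 150 on the HC arrays. Of 14 endothelial genes 11 were undetected on all 6 arrays. The Schwann cell and glial sums (10 genes) were 2610, 2860 and 3260 in HC and 4670, 4870 and 3320 in ENHC, with 5 to 9 genes detected per array. The melanocyte sums (4 genes) were 833, 637 and 1530 in HC and 1420, 2140 and 1250 in ENHC. The source of these signals was not tested. Some counts and differences are also given without HC 3. All other values include it, also for ENHC genes whose signal is highest on HC 3 among the HC arrays.

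**Figure D1:**
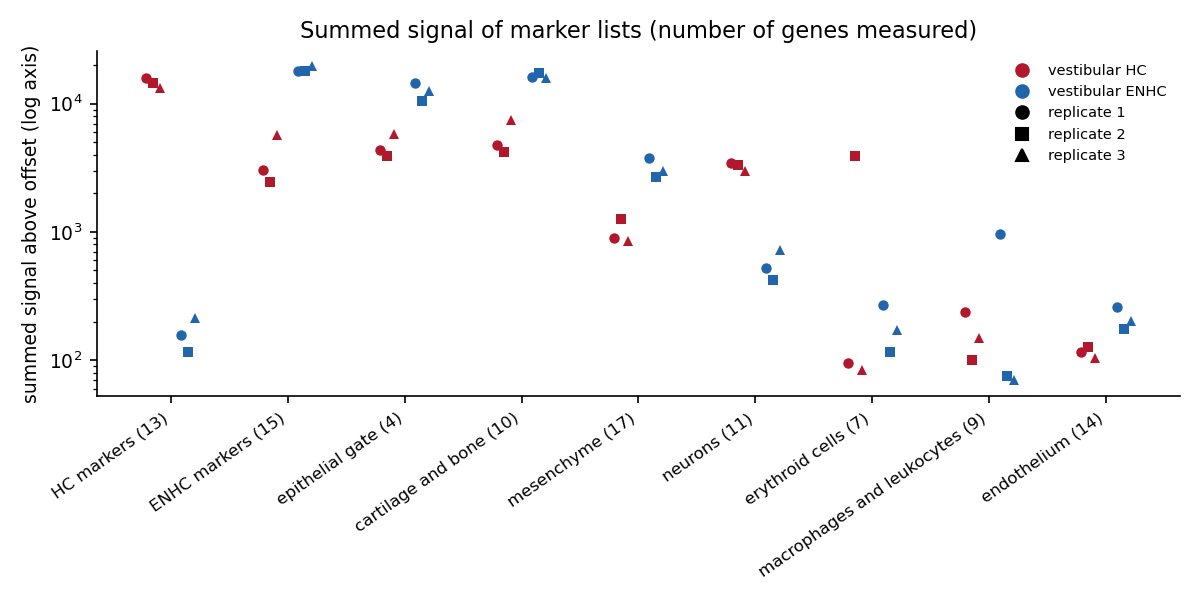
Summed signal of 9 marker lists on the 6 vestibular arrays, above the offset and on a log axis, with the number of genes measured in parentheses. The HC marker sums of 13300 to 15800 stand apart from 115 to 214 in ENHC, Vestibular HC 3 has the highest ENHC marker sum of the HC arrays (5650), and the erythroid sum is high on Vestibular HC 2 (3930).

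In all, 2020 genes were higher in HC (16.8% of those tested) and 2122 were lower (17.7%), of which 1287 and 1313 changed at least 2-fold. Counts of the gene lists below are to be read beside these shares. Higher genes made up 48.8% of the calls, and 60.5% when the arrays were scaled to a common median, which moved the median difference of all genes from -0.03 to 0.13. Without HC 3, 2091 genes were higher and 2167 lower. With the replicate number as a block in the fit, 2324 were higher and 2513 lower. In bulk samples a smaller number of expressing cells and less RNA per cell cannot be told apart. The genes with the largest differences among those on all 6 arrays were the acetylcholine receptor subunit gene Chrng, the dynein light chain gene Dynlrb2 and Tmem178b in HC, and Sbspon, the LIM homeobox factor Lmx1a and the growth factor Igf1 in ENHC. Tmem178b was 33-fold higher (log2 5.04 ± 0.26, adjusted p = 3.26e-11) in HC, with signals of 1746, 1797 and 1702 in HC and 41, 67 and 55 in ENHC. Sbspon, a secreted matrix protein with a somatomedin B domain, gave 40.0, 63 and 42 in HC and 1155, 1026 and 1115 in ENHC, and was 23.3-fold lower (log2 -4.54 ± 0.23, adjusted p = 2.6e-11) in HC. The gene 1110017D15Rik, also named Smrp1 in RefSeq, at 1781, 1259 and 1131 in HC and 46, 63 and 70.4 in ENHC, was 23.2-fold higher (log2 4.54 ± 0.21, adjusted p = 6.19e-12). The RNA-binding protein gene Ralyl, at 1904, 1514 and 1712 in HC and 56, 85 and 102 in ENHC, was 21.6-fold higher (log2 4.43 ± 0.36, adjusted p = 1.24e-08). For these 4 genes no HC array overlapped an ENHC array. Of all genes tested, 20.1% had every HC array above every ENHC array and 21.5% had every HC array below. The named genes were picked for large differences, so that groups lying apart in them, here and below, is a description and no further test.

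**Figure D2:**
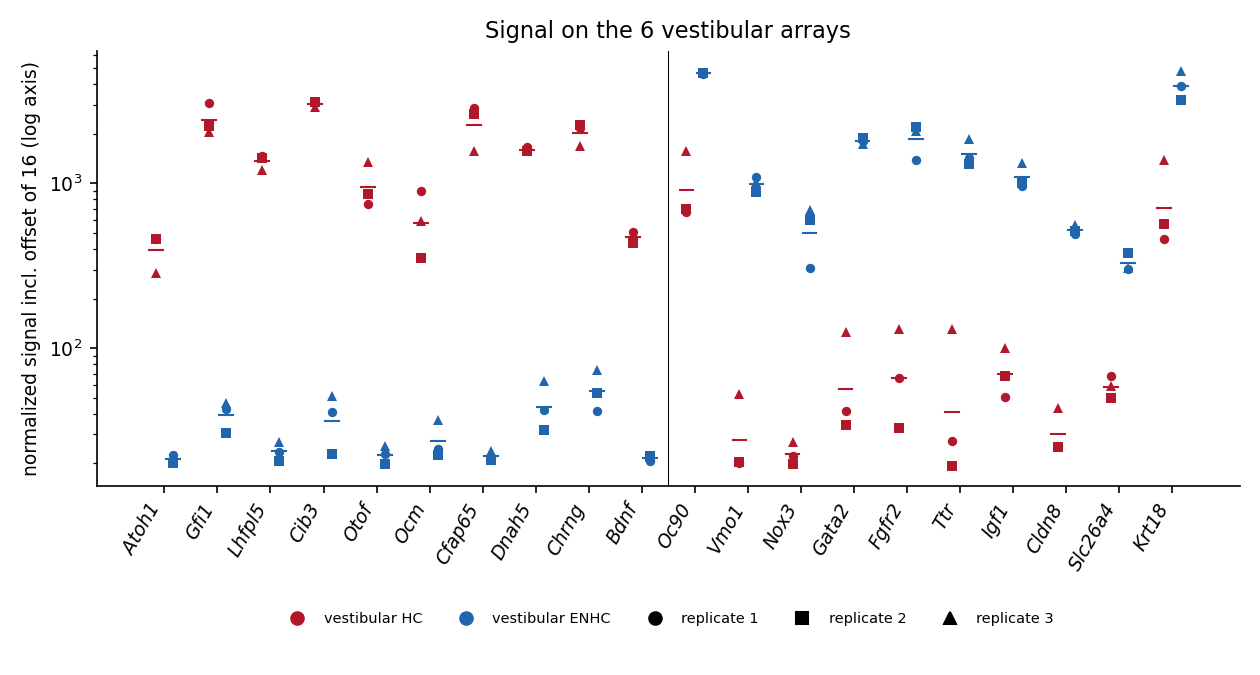
Normalized signal of 20 genes on the 6 vestibular arrays, on a log axis, with the geometric mean of each group as a bar. The 10 genes on the left are high on all 3 HC arrays and near background in ENHC, and the 10 on the right are higher on all 3 ENHC arrays than on any HC array. Vestibular HC 3 lies above the other HC arrays for every gene on the right except Slc26a4, although Nox3 is at background on all 3 HC arrays.

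Transcription factors that start and maintain the hair cell fate were mostly higher in HC. Of 19 measured, 15 were higher and 1 lower, beside 16.8% and 17.7% of all genes tested, with a median difference of 2.28 (2.17 with bounds) against -0.03 for all genes. Atoh1, the factor that starts hair cell differentiation and drives the transgene of the sort, gave 459, 461 and 285 in HC and 23, 20.1 and 21 in ENHC, at least 9.49-fold higher in HC. Since its activity selected the cells, it is a check on the sort and not a finding. Gfi1, a zinc finger repressor that keeps hair cells alive and holds down neuronal genes, read 3081, 2233 and 2047 in HC and 43, 31 and 47 in ENHC and was 61.5-fold higher (log2 5.94 ± 0.27, adjusted p = 4.13e-12, detected on 2 of 3 ENHC arrays). Pou4f3, needed for hair cell survival, had a low signal, with 43, 95 and 64 in HC and 21, 25 and 21 in ENHC, which sets a bound of 1.55-fold (log2 1.53 ± 0.22, adjusted p = 2.5e-05). Both groups were apart for these 3 factors. Myt1, a neural zinc finger factor, was at least 29.7-fold higher (adjusted p = 3.33e-12), and the helix-loop-helix factor Nhlh1 at least 14.1-fold higher (adjusted p = 6.19e-12). Lhx3, a LIM homeobox factor, read 402, 503 and 294 in HC and 25, 36 and 36 in ENHC, at least 9.45-fold higher (adjusted p = 2.76e-09). Barhl1, a homeobox factor required for the long-term survival of hair cells, was at least 7.66-fold higher (adjusted p = 1.44e-09), and the coactivator Pou2af1 at least 11.3-fold higher (adjusted p = 8.09e-11). Lmo1, a LIM-only cofactor, was 13.5-fold higher (log2 3.75 ± 0.23, adjusted p = 2.43e-10), with 986, 1297 and 1153 in HC and 89, 105 and 65 in ENHC.

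Some factors of this group are shared with the prosensory epithelium. Sox2, which specifies the prosensory domain and is kept by supporting cells and some vestibular hair cells, read 1502, 1553 and 1459 in HC and 261, 262 and 435 in ENHC, 4.86-fold higher (log2 2.28 ± 0.24, adjusted p = 4.8e-07) in HC. Its 2 kept probes ran from 0.68 to 2.28, so the size of its difference depends on the probe. Isl1 gave 993, 916 and 1041 in HC and 444, 270.1 and 529.5 in ENHC and was 2.46-fold higher (log2 1.30 ± 0.29, adjusted p = 0.00156). Every HC array lay above every ENHC array for both. Eya1, a phosphatase and cofactor of the early otic placode, was 1.46-fold higher (log2 0.54 ± 0.20, adjusted p = 0.0401). Its call was lost without HC 2, HC 3, ENHC 1 or ENHC 3, with 0.42 to 0.55. The exception was Ikzf2, a zinc finger factor known from outer hair cells of the cochlea, which was detected on no HC array and on all ENHC arrays, 26, 24 and 36 in HC and 59.6, 86 and 60.4 in ENHC, at least 1.74-fold lower (adjusted p = 0.00139) in HC. Insm1, which holds cochlear outer hair cells to their fate, was undetected on all 6 arrays.

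Genes of the channel complex that turns bundle movement into current were on the HC side. Of 9 genes of the mechanotransduction complex and the tip links measured, 7 were higher in HC and 0 lower, with a median of 1.54. Cib3, a calcium-binding partner of the Tmc channel proteins in vestibular hair cells, read 3115, 3094 and 2923 in HC and 41, 23 and 51 in ENHC and was 83.8-fold higher (log2 6.39 ± 0.27, adjusted p = 2.14e-12, detected on 2 of 3 ENHC arrays). Lhfpl5, which joins the tip link to the channel, read 1459, 1431 and 1206 in HC and 24, 21 and 27 in ENHC, at least 32.9-fold higher (adjusted p = 3.09e-14). Tmie, a further subunit, read 1419.5, 1700.0 and 1315 in HC and 153, 228 and 216 in ENHC, 7.49-fold higher (log2 2.91 ± 0.22, adjusted p = 4.57e-09). No ENHC array came near an HC array for these 3 genes. Loxhd1, a stereociliary protein needed for hearing, was at least 8.55-fold higher (adjusted p = 5.16e-12), and Tomt, which brings the channel proteins to the bundle, was 2.91-fold higher (log2 1.54 ± 0.29, adjusted p = 0.000328). Of the pore-forming proteins, Tmc2, used early by vestibular hair cells, gave 35, 47 and 36 in HC and 21, 21 and 21 in ENHC, a difference near the detection limit (log2 0.88 ± 0.21, adjusted p = 0.00286). Tmc1 gave 72, 52 and 153 in HC and 44, 87 and 33 in ENHC by the probe that represents it and did not pass the test (log2 0.73 ± 0.40, adjusted p = 0.175). Its kept probes ran from 0.73 to 3.00, their mean gave 1.66 (adjusted p = 4.93e-07), and it also passed without ENHC 2 (1.12). Cdh23, the upper part of the tip link, was undetected on all 6 arrays, and no level is given for Pcdh15, its lower partner.

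Proteins of the stereocilia core, shaft and taper followed the same direction. Among 28 measured, 16 were higher and 2 lower in HC, with a median of 1.76. Xirp2, an actin-binding protein of the bundle, read 1723, 1421 and 1209 in HC and 22, 22 and 24 in ENHC, at least 34.8-fold higher (adjusted p = 3.09e-14). Its 3 kept probes ran from 3.91 to 5.99, so the bound is that of the probe that represents it. Ptprq, a phosphatase of the shaft connectors at the bundle base, read 1157, 1299 and 1268 in HC and 23, 22 and 23 in ENHC, at least 30-fold higher (adjusted p = 4.58e-14). Espnl, a relative of the actin bundler espin, read 2251, 3686 and 2974 in HC and 164, 55 and 85 in ENHC, 31.9-fold higher (log2 4.99 ± 0.34, adjusted p = 1.34e-09). The HC arrays were close to one another for Xirp2 and Ptprq, and for Espnl every HC array lay above every ENHC array. Espn itself was 21-fold higher (log2 4.39 ± 0.25, adjusted p = 1.22e-10, detected on 2 of 3 ENHC arrays), Kncn, a protein of the kinocilium base, at least 12.6-fold higher (adjusted p = 4.23e-12), Elmod1 at least 12.5-fold higher (adjusted p = 1.06e-13), and Grxcr2, which shapes the bundle, at least 14.4-fold higher (adjusted p = 3.33e-12). Strc, which forms the top connectors between stereocilia, was at least 9.14-fold higher (adjusted p = 3.87e-11) with 555, 383 and 253 in HC and 23, 21 and 21 in ENHC. The plastins went opposite ways. Pls1, the plastin of the hair bundle, was 5.89-fold higher (log2 2.56 ± 0.23, adjusted p = 5.79e-08), at 2168, 2137 and 1423 in HC and 322, 264 and 379.7 in ENHC, whereas Pls3 was 3.69-fold lower (log2 -1.88 ± 0.18, adjusted p = 1.53e-07) in HC, at 297, 294 and 424 in HC and 1488, 1108 and 1125 in ENHC. Fscn2, a fascin, fell slightly by the probe that represents it (log2 -0.71 ± 0.25, adjusted p = 0.0315), but the mean of its kept probes gave 2.18 in the opposite direction, so its direction depends on the probe. The call was lost without HC 1, HC 2, ENHC 1 or ENHC 2, with -0.59 to -0.70.

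Unconventional myosins, motors that carry cargo along the bundle actin, were higher for 7 and lower for 2 of 12, with a median of 1.15. Myo15, the motor that delivers the stereocilia tip complex, read 505, 628 and 538 in HC and 27, 22 and 22 in ENHC, at least 13.4-fold higher (adjusted p = 6.3e-13). Myo3b, a motor of the stereocilia tips, read 745, 1069 and 532 in HC and 27, 29 and 25 in ENHC, at least 18.2-fold higher (adjusted p = 3.48e-12). Myo6, which anchors the bundle at its base, read 8080.3, 7053 and 5910.0 in HC and 1569, 1553 and 1887 in ENHC and was 4.18-fold higher (log2 2.06 ± 0.20, adjusted p = 1.47e-07). Here too no array of one group reached the other. Myo7a, the classical hair cell motor, was at least 2.38-fold higher (adjusted p = 1.23e-08). Myo1c, an adaptation motor in vestibular hair cells of the mouse, was the reverse at 43, 29 and 28 in HC and 115, 93 and 92 in ENHC, 3.07-fold lower (log2 -1.62 ± 0.25, adjusted p = 4.53e-05, detected on 1 of 3 HC arrays) in HC. Of 7 Usher syndrome proteins and bundle links 5 were higher and 0 lower. Clrn1 was at least 6.64-fold higher (adjusted p = 5.07e-10) in HC, the ankle link receptor gene Adgrv1 at least 4.35-fold higher (adjusted p = 9.49e-10), and the scaffold gene Whrn at least 2-fold higher (adjusted p = 4.37e-06). Ush1c, another scaffold of the bundle, gave 1349.8, 1665 and 2268 in HC and 1418, 1418 and 1696 in ENHC and did not pass the test (log2 0.19 ± 0.19, adjusted p = 0.48), while the mean of its kept probes gave 1.30 (adjusted p = 5.09e-07).

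Calcium-binding proteins rose together in HC. Of 14 measured, 12 were higher and 0 lower in HC, with a median of 2.01 (1.86 with bounds). Cabp2, a calmodulin-like sensor of the ribbon synapse, read 4057, 3975 and 3935 in HC and 49.5, 24 and 55 in ENHC, 98.4-fold higher (log2 6.62 ± 0.30, adjusted p = 4.23e-12, detected on 2 of 3 ENHC arrays). Pvalb, the buffer parvalbumin, read 1794, 2021 and 1483 in HC and 28, 19 and 30.0 in ENHC, at least 42.4-fold higher (adjusted p = 2.68e-12). Calb2 (calretinin), a buffer of hair cells and calyx afferents, read 1481, 1697 and 1317 in HC and 22, 22 and 46 in ENHC, 53-fold higher (log2 5.73 ± 0.40, adjusted p = 1.61e-09, detected on 1 of 3 ENHC arrays, kept probes from 2.43 to 5.73). In each case the HC arrays lay close to one another and far above the ENHC arrays, of which at most 2 detected the gene. Ocm (oncomodulin), which marks the central zones of the vestibular organs, varied more, at 894, 352 and 594 in HC and 24, 23 and 37 in ENHC, at least 13.8-fold higher (adjusted p = 6.07e-10). S100a13 was 6.36-fold higher (log2 2.67 ± 0.20, adjusted p = 4.08e-09) and S100a1 4.87-fold higher (log2 2.28 ± 0.28, adjusted p = 2.87e-06), while Calb1 was undetected on all 6 arrays. Of 10 calcium pumps and exchangers 6 were higher and 1 lower. Atp2b2, the pump that clears calcium from stereocilia, read 1236, 1251 and 996 in HC and 347, 301 and 289 in ENHC, 3.71-fold higher (log2 1.89 ± 0.27, adjusted p = 1.6e-05). The sodium-calcium exchanger gene Slc8a1 was 3.72-fold higher (log2 1.90 ± 0.27, adjusted p = 1.78e-05), and Atp2b3, another pump of the plasma membrane, was at least 2.73-fold higher (adjusted p = 3.61e-08).

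Ion channels did not move as one group. Potassium channels were higher for 8 and lower for 3 of 19, with a median of 0.31, voltage-gated calcium channels for 4 and 1 of 9, and sodium and HCN channels for 1 and 1 of 7 (2 and 1 with the replicate block). The sodium and HCN shares of 14.3% each lay below the 16.8% and 17.7% of all genes tested. Kcna10, a potassium channel that vestibular function requires, read 457, 651 and 404 in HC and 32, 37 and 27 in ENHC, at least 12-fold higher (adjusted p = 1.42e-10). Kcnj2, an inward rectifier, read 748, 804 and 681 in HC and 75, 73 and 69 in ENHC, 10.3-fold higher (log2 3.37 ± 0.28, adjusted p = 2.31e-08), and Kcnh7, of the erg family, 331, 267 and 316 in HC and 21, 23 and 24 in ENHC, at least 7.34-fold higher (adjusted p = 4.07e-12). For each the 3 HC arrays lay together and above all ENHC arrays. Kcnma1, the large-conductance calcium-activated channel, was at least 3.39-fold higher (adjusted p = 3.25e-06). Scn11a, a sodium channel otherwise known from pain-sensing neurons, read 435, 760.4 and 259 in HC and 28, 20.2 and 21 in ENHC, at least 10.7-fold higher (adjusted p = 3.33e-10). Cacna1d, the calcium channel of the ribbon synapse, read 355, 545 and 388 in HC and 179, 204 and 176 in ENHC, 2.27-fold higher (log2 1.18 ± 0.25, adjusted p = 0.00109), and its accessory subunit gene Cacnb2 was 2.49-fold higher (log2 1.31 ± 0.20, adjusted p = 4.73e-05). Cacna2d1, another accessory subunit, was lower in HC (log2 -2.26 ± 0.30, adjusted p = 8.66e-06), and so was Kcnk1, a background potassium channel (log2 -1.50 ± 0.21, adjusted p = 1.49e-05).

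Receptor genes were found on both sides. Among 15 genes of acetylcholine, purine and glutamate receptors 6 were higher and 6 lower, with a median of -0.17, and the 6 higher ones were 5 acetylcholine receptor subunits and 1 purine receptor. Chrng, a subunit of the embryonic muscle receptor, read 2174, 2256 and 1685 in HC and 42, 53 and 74 in ENHC, 37-fold higher (log2 5.21 ± 0.22, adjusted p = 1.96e-12). Its 2 kept probes ran from 1.91 to 5.21. Chrna9 read 516, 646 and 363 in HC and 28, 22 and 25 in ENHC, at least 12-fold higher (adjusted p = 2.33e-11), and Chrna10, its partner in the efferent receptor of hair cells, 425, 370.3 and 329.9 in HC and 21, 21 and 22 in ENHC, at least 9.04-fold higher (adjusted p = 1.79e-12). All 3 were low in ENHC. Chrna1, a further muscle subunit, was at least 7.09-fold higher (adjusted p = 1.91e-08), and the purine receptor gene P2rx3 at least 12.8-fold higher (adjusted p = 4.05e-11). Chrnb1, the muscle receptor beta subunit, was lower in HC, with 153, 283 and 165 in HC and 889.6, 754 and 976 in ENHC (log2 -2.18 ± 0.28, adjusted p = 5.41e-06), as were the glutamate receptor gene Gria3, 45, 35 and 74 in HC and 361, 295 and 392 in ENHC (log2 -2.82 ± 0.25, adjusted p = 4.21e-08), and the purine receptor gene P2ry1 (log2 -2.30 ± 0.48, adjusted p = 0.000853).

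Genes of the ribbon synapse and of vesicle fusion were higher for 23 and lower for 2 of 38, with a median of 1.41 (1.02 with bounds). Without HC 3 the lower count was 5, and with the replicate block it was 6. Otof (otoferlin), the calcium sensor of hair cell exocytosis, read 753, 858 and 1349.8 in HC and 23, 19.7 and 26 in ENHC, at least 23.1-fold higher (adjusted p = 4.23e-12). Slc17a8, which loads glutamate into vesicles (Vglut3), read 3089, 2101 and 2387 in HC and 56, 46 and 86 in ENHC, 41.5-fold higher (log2 5.37 ± 0.34, adjusted p = 4.78e-10, detected on 2 of 3 ENHC arrays). Dnajc5b, a chaperone of the cysteine string protein family, read 729, 651 and 577 in HC and 20.2, 22 and 23 in ENHC, at least 15.7-fold higher (adjusted p = 6.3e-13). For Otof HC 3 was the highest array, and for Slc17a8 and Dnajc5b HC 1 was. Ap3b2, a subunit of the adaptor AP-3, was at least 11.8-fold higher (adjusted p = 5.38e-13) in HC, the vesicle protein gene Syp at least 11.1-fold higher (adjusted p = 1.3e-08), the active zone scaffold gene Rimbp2 at least 5.96-fold higher (adjusted p = 7.34e-10) and Rab3b at least 4.56-fold higher (adjusted p = 1.01e-07). Snap25, a SNARE protein, read 185, 159 and 139.5 in HC and 20.3, 20.4 and 21 in ENHC, at least 3.87-fold higher (adjusted p = 3.96e-09). Slc17a6, another vesicular glutamate transporter, was the reverse, at 89.9, 48 and 55 in HC and 174, 184 and 192 in ENHC (log2 -1.57 ± 0.36, adjusted p = 0.00193).

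Hair cells also carried genes that neurons use. Of 19 neurofilament and neuronal cytoskeleton genes 9 were higher and 3 lower (7 and 3 without HC 3), of 10 granins and prohormone processing genes 5 and 2 (5 and 1 without HC 3), and of 22 splicing regulators 12 and 3 (12 and 2 without HC 3). The higher shares were 47.4%, 50% and 54.5%, beside 16.8% of all genes tested. The lower shares were 15.8%, 20% and 13.6%, near the 17.7% of all genes tested. Nefm, a neurofilament subunit, read 2186, 1717 and 1902 in HC and 29.6, 21 and 29.8 in ENHC, at least 46.6-fold higher (adjusted p = 4.17e-11), and Nefl 529, 299.5 and 216 in HC and 21, 21 and 22 in ENHC, at least 7.85-fold higher (adjusted p = 4.36e-08). The long noncoding RNA Miat read 5613, 5124 and 3839 in HC and 219, 25 and 84 in ENHC and was 61.9-fold higher (log2 5.95 ± 0.53, adjusted p = 4.34e-08, detected on 2 of 3 ENHC arrays). The secretogranin gene Scg3 was at least 9.85-fold higher (adjusted p = 1.29e-10), Chgb at least 10.3-fold higher (adjusted p = 9.72e-09) and Chga at least 7.44-fold higher (adjusted p = 1.05e-07). Chga was highest on HC 2, at 196, 668 and 222 in HC and 23, 21 and 22 in ENHC. Of the splicing factors, Srrm4, which includes neuronal microexons, read 314, 391 and 239 in HC and 23, 21 and 22 in ENHC, at least 7.48-fold higher (adjusted p = 2.33e-11), and Srrm3 was at least 2.38-fold higher (adjusted p = 1.44e-07). Esrp1, the epithelial splicing factor, was lower at 378, 526 and 745 in HC and 1289, 1346 and 1243 in ENHC (log2 -1.29 ± 0.21, adjusted p = 6.53e-05), and Mbnl2 also (log2 -1.98 ± 0.25, adjusted p = 5.41e-06). The neuron marker list moved with these genes, with 7 of 11 higher and a summed signal of 3010 to 3440 in HC against 419 to 726 in ENHC. The neuronal markers Tubb3 and Stmn2 were undetected on all 6 arrays, and Calb2 and Isl1, 2 of the 7, are hair cell genes as well.

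Genes of the cilium rose together in HC. Of 97 axoneme genes measured in 3 lists, 86 were higher in HC and 0 lower, with a median of 2.38 (2.10 with bounds) against -0.03 for all genes, and the same 86 and 0 counts were found without HC 3. Genes of the axonemal dyneins, the motors that make an axoneme beat, and of the factors that assemble them were higher for 29 of 32. Dnah5, the heavy chain of the outer dynein arm, read 1667, 1562 and 1562 in HC and 42, 32 and 63 in ENHC, 36.3-fold higher (log2 5.18 ± 0.20, adjusted p = 1.02e-12, detected on 2 of 3 ENHC arrays). Dynlrb2, a dynein light chain, read 2624, 2436 and 2256 in HC and 94, 50.3 and 76 in ENHC, 34.2-fold higher (log2 5.10 ± 0.21, adjusted p = 1.81e-12). Ttc25, part of the docking complex of the outer arm, read 1339, 1162 and 894 in HC and 52, 59 and 57 in ENHC, 20.1-fold higher (log2 4.33 ± 0.19, adjusted p = 3.53e-12). The HC arrays of Dnah5 were nearly equal. Ccdc151 and Armc4, further docking factors, were 21.2-fold higher (log2 4.40 ± 0.34, adjusted p = 6.21e-09, detected on 1 of 3 ENHC arrays) and at least 7.7-fold higher (adjusted p = 3.87e-11). Dnali1, an inner arm chain, was at least 11.5-fold higher (adjusted p = 6.39e-11), Dnaic1 and Dnaic2, intermediate chains of the outer arm, 5.19-fold higher (log2 2.38 ± 0.25, adjusted p = 3.7e-07, detected on 2 of 3 ENHC arrays) and at least 1.99-fold higher (adjusted p = 3.21e-06), and the assembly factors Dnaaf3 and Zmynd10 9.83-fold higher (log2 3.30 ± 0.22, adjusted p = 7.53e-10) and at least 2.84-fold higher (adjusted p = 3.95e-09). Dnah6 and Dnah9 were at least 2.79-fold higher (adjusted p = 4.54e-07) and at least 1.61-fold higher (adjusted p = 1.04e-05).

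Proteins inside the doublet microtubules, tektins and the molecular rulers of the axoneme were higher for 20 of 22, with a median of 2.39. Fam183b, a protein of the doublet lumen (Cfap144), read 1987, 2906 and 1705 in HC and 24, 21 and 27 in ENHC, at least 51.9-fold higher (adjusted p = 5.34e-14). Cfap45 read 2665, 2944 and 2719 in HC and 42, 43 and 49 in ENHC, 62.4-fold higher (log2 5.96 ± 0.23, adjusted p = 6.79e-13, detected on 2 of 3 ENHC arrays), and Cfap52 723, 636 and 545 in HC and 21, 25 and 19.7 in ENHC, at least 15.3-fold higher (adjusted p = 1.06e-13). All ENHC arrays were at or near background for these genes. Tekt1, a tektin filament, read 1099, 1165 and 848 in HC and 72, 56 and 68 in ENHC, 15.8-fold higher (log2 3.98 ± 0.19, adjusted p = 1.01e-11). The ruler genes Ccdc39 and Ccdc40 were 9.81-fold higher (log2 3.29 ± 0.21, adjusted p = 4.4e-10) and at least 2.59-fold higher (adjusted p = 3.11e-07). Of 44 genes of the radial spokes, nexin links and central pair, the parts that control the beat, 38 were higher, with a median of 2.78 (2.12 with bounds). Cfap65 read 2860.0, 2618 and 1567 in HC and 22, 21 and 24 in ENHC, at least 55-fold higher (adjusted p = 5.34e-14), the largest bound in the comparison, and Cfap206, at the spoke base, read 1597, 1789 and 1327 in HC and 22, 22 and 25 in ENHC, at least 37.8-fold higher (adjusted p = 3.09e-14). The 2 kept probes of Cfap206 ran from 3.30 to 6.08, so its bound is that of the probe that represents it. Rsph1, a spoke head protein, read 2214, 1496 and 954 in HC and 95, 57 and 65 in ENHC, 20.8-fold higher (log2 4.38 ± 0.33, adjusted p = 5.4e-09). For Cfap65 and Rsph1, HC 3 was the lowest HC array. Drc3 and Drc1, of the nexin-dynein regulatory complex, were 16.1-fold higher (log2 4.01 ± 0.23, adjusted p = 1.12e-10) and 21.2-fold higher (log2 4.41 ± 0.30, adjusted p = 9.62e-10, detected on 1 of 3 ENHC arrays). Spag6l and Hydin, of the central pair, were at least 17.6-fold higher (adjusted p = 8.31e-14) and 3.05-fold higher (log2 1.61 ± 0.24, adjusted p = 2.98e-05).

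Transport into the cilium and its gate changed in the same direction but by less. Of 42 genes of intraflagellar transport and the BBSome 32 were higher and 0 lower (1 with the replicate block), with a median of 1.31, and of 44 genes of the transition zone and basal body 22 and 0, with a median of 0.96. Ift172 and Ift88, of the anterograde train, read 423, 539 and 495 in HC and 93, 187 and 119.9 in ENHC and 336, 493 and 233 in HC and 103, 80.2 and 97 in ENHC, 3.78-fold higher (log2 1.92 ± 0.24, adjusted p = 4.37e-06) and 3.64-fold higher (log2 1.86 ± 0.24, adjusted p = 6.3e-06). Dync2h1, the retrograde motor, read 1004, 835 and 741 in HC and 297, 193 and 204 in ENHC, 3.77-fold higher (log2 1.91 ± 0.21, adjusted p = 5.89e-07). Bbs5, of the BBSome, was 6.41-fold higher (log2 2.68 ± 0.25, adjusted p = 6.74e-08, detected on 2 of 3 ENHC arrays). In none of the 4 did an ENHC array reach the lowest HC array. Of kinesins 9 of 21 were higher and 1 lower. Kif27 was 12.3-fold higher (log2 3.62 ± 0.31, adjusted p = 2.67e-08, detected on 2 of 3 ENHC arrays), Kif9, a motor of the central pair, at least 7.52-fold higher (adjusted p = 2.23e-10), and Kif3a, the motor of intraflagellar transport, 2.79-fold higher (log2 1.48 ± 0.17, adjusted p = 1.13e-06). Ccp110, a cap of the mother centriole, was 7.4-fold higher (log2 2.89 ± 0.21, adjusted p = 2.84e-09), at 919, 711 and 549 in HC and 109.9, 102 and 79 in ENHC. The centrin gene Cetn2 was 6.02-fold higher (log2 2.59 ± 0.18, adjusted p = 2.03e-09), and Nphp4 and Tmem231 of the transition zone were at least 3.18-fold higher (adjusted p = 3.96e-07) and 5.11-fold higher (log2 2.35 ± 0.19, adjusted p = 1.53e-08).

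The RFX proteins, which bind the X-box, and Foxj1, which drives motile cilia, are known to switch on cilium genes. Foxj1 read 235, 239.8 and 141 in HC and 45, 39.6 and 37 in ENHC, 4.93-fold higher (log2 2.30 ± 0.22, adjusted p = 9.46e-08, detected on 1 of 3 ENHC arrays). Rfx3 read 741, 1214 and 1073 in HC and 159, 501 and 400.1 in ENHC and was 3.12-fold higher (log2 1.64 ± 0.41, adjusted p = 0.0039). Rfx2 was near the threshold, 94, 68 and 114 in HC and 28, 87 and 35 in ENHC (log2 1.03 ± 0.39, adjusted p = 0.0473), and lost its call under 10 of 18 alternatives, among them without HC 1, HC 3, ENHC 1 or ENHC 3, with 0.71 to 1.00. Rfx1 did not pass (log2 -0.39 ± 0.33, adjusted p = 0.411). Promoter windows of RefSeq (GRCm38.p6, 250 bases before to 50 after each start) were searched on both strands for 2 X-box-like spellings, GTTGCCNNNGNAAC and GTTGCCNNGNAAC, which exclude each other from a shared first base. Both begin with GTTGCC, which was found alone or as part of them in the windows of 14.9% of genes tested and 45.0% of axoneme genes. Of genes tested that have a window, 1.09% held a match (105 of 9651), against 0.910% of all RefSeq genes with one. The share was 3.15% among genes higher in HC (52 of 1651), 0.420% among lower genes (7 of 1668) and 0.726% among genes not called (46 of 6332). In the axoneme lists it was 12.5% (10 of 80), in intraflagellar transport and the BBSome 13.5% (5 of 37) and in the transition zone 11.9% (5 of 42). No window of the hair cell factors (14 genes with a window), the stereocilia core (22) or the ribbon synapse (30) held one. These are too few genes to tell 0 from the 1.09% of all genes tested. These shares describe letters and not binding.

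**Figure D3:**
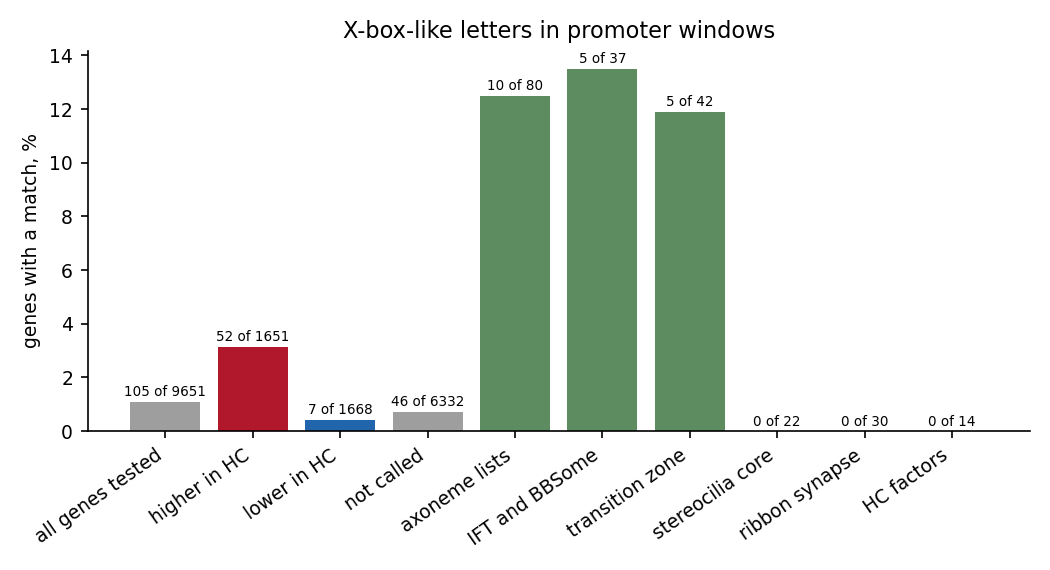
Share of genes, in percent, whose RefSeq promoter window holds either X-box-like spelling on either strand, with the number of genes with a match and with a window above each bar. The 3 cilium classes stand at 11.9% to 13.5%, genes higher in HC at 3.15% and all genes tested at 1.09%.

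The stretches around 8 of these matches are shown because they let the spacing and the place of the letters be compared between genes that rose in HC. Each is read on the strand of its gene and ends before the start site, with the match in capitals, and the match was found on the opposite strand in Dnaic2 and reads as a match on both strands in Dydc1. In GRCm38.p6 they are Fam183b at chr11:58801961-58802036 (minus strand), Dynlrb2 at chr8:116504904-116505014 (plus strand), Iqca at chr1:90153463-90153596 (minus strand), Spag16 at chr1:69826807-69826940 (plus strand), Dydc1 at chr14:41072792-41072910 (plus strand), Dnaic2 at chr11:114727326-114727418 (plus strand), Kif17 at chr4:138262118-138262250 (plus strand) and Tctn3 at chr19:40612299-40612431 (minus strand).
Fam183b: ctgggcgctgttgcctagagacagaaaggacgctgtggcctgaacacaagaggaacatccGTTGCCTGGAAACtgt
Dynlrb2: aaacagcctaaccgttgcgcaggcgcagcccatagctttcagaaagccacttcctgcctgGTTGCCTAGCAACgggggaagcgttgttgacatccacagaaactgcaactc
Iqca: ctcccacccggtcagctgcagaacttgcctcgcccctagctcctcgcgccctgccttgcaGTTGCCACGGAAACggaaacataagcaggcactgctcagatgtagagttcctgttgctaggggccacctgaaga
Spag16: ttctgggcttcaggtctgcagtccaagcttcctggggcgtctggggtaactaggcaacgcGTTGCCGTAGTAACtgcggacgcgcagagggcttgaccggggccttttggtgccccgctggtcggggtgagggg
Dydc1: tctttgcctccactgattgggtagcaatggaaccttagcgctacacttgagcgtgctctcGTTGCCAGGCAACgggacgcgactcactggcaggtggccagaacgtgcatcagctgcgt
Dnaic2: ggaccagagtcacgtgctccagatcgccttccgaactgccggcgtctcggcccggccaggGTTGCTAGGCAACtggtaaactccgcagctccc
Kif17: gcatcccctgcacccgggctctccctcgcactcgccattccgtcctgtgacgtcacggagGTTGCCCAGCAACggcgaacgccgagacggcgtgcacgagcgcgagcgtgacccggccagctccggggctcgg
Tctn3: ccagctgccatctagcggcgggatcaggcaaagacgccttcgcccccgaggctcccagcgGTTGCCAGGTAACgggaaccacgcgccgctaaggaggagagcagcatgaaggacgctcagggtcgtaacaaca
In Fam183b the match ended 4 bases before the start and in Dnaic2 21, whereas in Tctn3 it ended 128 bases before. Signals of Fam183b and Dynlrb2 are given above. Spag16, a central pair protein, read 174, 112 and 148 in HC and 26, 23 and 25 in ENHC, at least 3.45-fold higher (adjusted p = 1.52e-08), and Iqca, of the nexin link, 121, 157 and 115 in HC and 23, 24 and 21 in ENHC, at least 3.14-fold higher (adjusted p = 9.3e-10). Dydc1 was at least 2.76-fold higher (adjusted p = 1.88e-08), Kif17, a ciliary kinesin, at least 1.64-fold higher (adjusted p = 0.000118), and Tctn3, of the transition zone, 2.81-fold higher (log2 1.49 ± 0.25, adjusted p = 0.00012). All 8 were higher in HC on each of the 3 arrays.

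The vestibular and cochlear differences were set against each other for the axoneme. The HC to ENHC difference was larger in the vestibular system for 48 of the 97 genes and smaller for 0, with a median of 1.00 on the log2 scale, while over all genes 6.14% were larger and 4.47% smaller. Dnah5 differed by 1.30 in the cochlea and by 5.18 in the vestibular system, 3.88 apart (adjusted p = 8.18e-08). For the outer arm docking genes Ccdc114 and Ttc25 the distance was 2.55 and 1.86, for Ppp1r32 2.82 and for Fam183b 2.46. Of the 48 genes 24 were undetected on the ENHC arrays of both organs, Ccdc114, Ppp1r32 and Fam183b among them, so that each organ's difference is bounded by background and the distance is no exact size. Ttc25 was among the 10 that all 12 HC and ENHC arrays detected. Other axoneme genes did not pass the test of the organ difference, among them Dynlrb2 (0.43, adjusted p = 0.479), Cfap206 (0.60, adjusted p = 0.16) and Rsph1 (0.30, adjusted p = 0.815). Of intraflagellar transport genes 6 of 42 and of transition zone genes 4 of 44 were larger in the vestibular system, and 0 smaller. Of the stereocilia core 3 of 28 were larger and 1 smaller, and of the synapse 3 of 38 and 2. Cib3 stood out, with 0.57 in the cochlea and 5.82 more in the vestibular system (adjusted p = 1.27e-08).

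**Figure D4:**
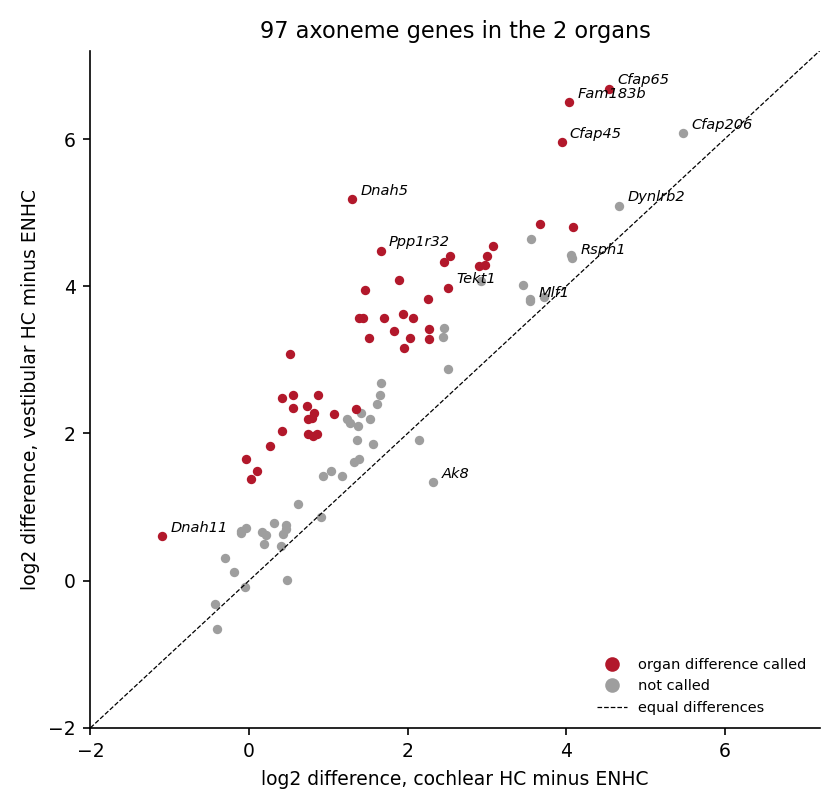
Log2 difference between HC and ENHC of 97 axoneme genes in the cochlea (x axis) and the vestibular system (y axis), 1 point per gene, with the line of equal differences dashed. The 48 genes whose organ difference was called all lie above the line.

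Genes used to tell type I, type II and zonal vestibular hair cells apart were higher for 10 and lower for 0 of 15 (1 with the replicate block), and their call does not separate the types because both lie within the GFP-positive cells. Kcna10, Ocm, Calb2, Sox2 and Atp2b2 are given above. Tnc, a matrix protein laid down around calyces, read 2583, 3283 and 2643 in HC and 426, 219 and 384 in ENHC, 8.55-fold higher (log2 3.10 ± 0.29, adjusted p = 9.97e-08). Anxa4, known from type II cells, read 2834, 3367 and 2744 in HC and 399.9, 443 and 431 in ENHC, 7-fold higher (log2 2.81 ± 0.17, adjusted p = 2.26e-10). HC and ENHC were apart on every array for both. Sall3 was 4.9-fold higher (log2 2.29 ± 0.28, adjusted p = 3.32e-06). The potassium channel subunit gene Kcnab1, with 183, 47 and 129.5 in HC and 36, 29.9 and 29.8 in ENHC, was at least 2.51-fold higher (adjusted p = 0.000429). Emx2, which sets hair cell orientation across the line of polarity reversal, gave 291, 201 and 171 in HC and 467, 289.8 and 287 in ENHC and did not pass (log2 -0.65 ± 0.27, adjusted p = 0.0757). It passed with the replicate number as a block (adjusted p = 0.0244) and without HC 1 (-0.87). Mapt was undetected on all 6 arrays.

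The Notch pathway holds supporting cells back from the hair cell fate, with ligands on hair cells and the receptor on their neighbours. Of 20 measured genes 8 were higher (40%) and 5 lower (25%) in HC, beside 16.8% and 17.7% of all genes tested, with a median of 0.40. The higher count was 6 without HC 3 and 5 with the 6 arrays fitted alone. The ligand gene Dll3 read 339.8, 279.5 and 249 in HC and 20.1, 20.1 and 21 in ENHC, at least 6.95-fold higher (adjusted p = 2.17e-12). Jag2 read 52, 143 and 51 in HC and 23, 23 and 22 in ENHC, at least 1.76-fold higher (adjusted p = 7.83e-05), and Dll1 49.6, 26 and 44 in HC and 26, 23 and 24 in ENHC (log2 0.65 ± 0.22, adjusted p = 0.0295). The call of Dll1 was lost without HC 1, HC 3, ENHC 2 or ENHC 3, with 0.47 to 0.65. All 3 ligands were undetected in ENHC, and Jag2 was highest on HC 2. The atypical ligand gene Dner read 2262, 1363 and 1719.9 in HC and 32, 22 and 44 in ENHC and was 55.6-fold higher (log2 5.80 ± 0.27, adjusted p = 5.62e-12, detected on 1 of 3 ENHC arrays). The glycosyltransferase gene Mfng, which modifies the receptor, was 10.5-fold higher (log2 3.40 ± 0.25, adjusted p = 4.05e-09), and Lfng at least 2.67-fold higher (adjusted p = 1.61e-05). The receptor gene Notch1 was lower in HC, at 202, 142 and 299.5 in HC and 410.3, 569 and 476 in ENHC (log2 -1.23 ± 0.26, adjusted p = 0.000971). Dlk1, an inhibitory ligand, read 32, 22 and 174 in HC and 686, 587 and 524 in ENHC (log2 -3.59 ± 0.49, adjusted p = 1.13e-05), and -4.50 without HC 3. Jag1, the ligand of the prosensory domain, gave 448, 377 and 884 in HC and 474, 481 and 614 in ENHC and did not pass (log2 0.03 ± 0.29, adjusted p = 0.95).

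Of 10 Hes, Hey and Id repressors 3 were higher and 3 lower (30% each), beside 16.8% and 17.7% of all genes tested. Hes6, which opposes the other Hes proteins, read 515, 789.7 and 438 in HC and 222, 110.0 and 101 in ENHC, 4.17-fold higher (log2 2.06 ± 0.34, adjusted p = 9.96e-05). The Id proteins, which bind and block helix-loop-helix factors, fell for 3 of 4. Id1 read 151, 95 and 150.1 in HC and 659.5, 519 and 381 in ENHC, 3.93-fold lower (log2 -1.97 ± 0.25, adjusted p = 5.55e-06) in HC, Id2 was 3.09-fold lower (log2 -1.63 ± 0.27, adjusted p = 7.97e-05) and Id3 2.78-fold lower (log2 -1.48 ± 0.21, adjusted p = 1.55e-05). Id4 was the reverse, 1001, 943 and 835 in HC and 444, 264 and 414 in ENHC, 2.54-fold higher (log2 1.34 ± 0.28, adjusted p = 0.00099). Prosensory and supporting cell genes were higher for 10 (32.3%) and lower for 6 (19.4%) of 31, with a median of 0.14. The higher count was 6 with the 6 arrays alone and also without ENHC 1. Gata2, a zinc finger factor of the nonsensory vestibular epithelium, had the widest difference, 42, 34 and 125 in HC and 1797, 1889 and 1743 in ENHC (log2 -5.01 ± 0.35, adjusted p = 1.66e-09, -5.59 without HC 3). Sox10 read 95, 104 and 171 in HC and 619, 866 and 648 in ENHC, 5.9-fold lower (log2 -2.56 ± 0.36, adjusted p = 1.51e-05) in HC, and Anxa2 505, 371 and 1030.0 in HC and 1939, 2312 and 2350.4 in ENHC, 3.79-fold lower (log2 -1.92 ± 0.30, adjusted p = 5.17e-05). Pax2, an early otic factor, was 2.33-fold higher (log2 1.22 ± 0.20, adjusted p = 7.38e-05), and Prox1 1.81-fold higher (log2 0.85 ± 0.29, adjusted p = 0.0285). The call of Prox1 was lost without HC 1, HC 3, ENHC 1 or ENHC 2, with 0.63 to 0.89. Sox9 gave 2579.8, 1933 and 3549 in HC and 2923, 3157 and 3927 in ENHC and did not pass (log2 -0.34 ± 0.24, adjusted p = 0.306).

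Among factors outside these lists, Lmx1a, which keeps nonsensory otic epithelium from becoming sensory, read 64, 124 and 433 in HC and 3239, 2468 and 2009 in ENHC, 16.7-fold lower (log2 -4.06 ± 0.50, adjusted p = 3.2e-06) in HC. The difference was -4.82 without HC 3, whose signal was the highest of the HC arrays. Otx2, a homeobox factor of head and ear development, read 23, 22 and 22 in HC and 573, 419.5 and 327 in ENHC, at least 11-fold lower (adjusted p = 4.23e-12) in HC. Esrrb, an orphan nuclear receptor that dark cell and strial function requires, read 25, 89 and 156 in HC and 1193, 1368 and 1272 in ENHC (log2 -4.19 ± 0.44, adjusted p = 4.25e-07).

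Genes of the extracellular matrices over the maculae and cristae lay on the ENHC side. Of 19 genes for otoconia, cupula and otolithic membrane 0 were higher and 11 lower in HC, with a median of -1.27 (-0.90 with bounds). Oc90, the main soluble protein of otoconia, read 674, 702 and 1572 in HC and 4598, 4643 and 4689 in ENHC, 5.13-fold lower (log2 -2.36 ± 0.38, adjusted p = 6.59e-05) in HC (-2.76 without HC 3). Nox3, the oxidase that otoconia formation requires, read 22, 19.7 and 27 in HC and 306, 599.8 and 693 in ENHC, at least 13-fold lower (adjusted p = 3.26e-11). Vmo1, a secreted protein, read 20.1, 20.3 and 53 in HC and 1086, 890.1 and 1022 in ENHC (log2 -5.16 ± 0.30, adjusted p = 1.29e-10), with HC 3 the only HC array that detects it. All ENHC arrays were above all HC arrays for the 3 genes. Noxo1 and Cyba, subunits that work with the oxidase, were 2.65-fold lower (log2 -1.41 ± 0.40, adjusted p = 0.0106) and at least 1.87-fold lower (adjusted p = 0.00161). The call of Noxo1 was lost without HC 1 (-0.95) or ENHC 2 (-1.14). Tecta, a protein of the otolithic and tectorial membranes, read 255, 317 and 474 in HC and 827, 1074 and 1215 in ENHC, 3.04-fold lower (log2 -1.60 ± 0.25, adjusted p = 5.17e-05), and Otoa, which attaches such gels to the cells beneath, 277, 222 and 475 in HC and 794, 708 and 804 in ENHC, 2.49-fold lower (log2 -1.32 ± 0.23, adjusted p = 0.000189). Otol1, the collagen-like otolin of otoconia, gave 1609.8, 1464 and 2933 in HC and 2772, 3124 and 3225 in ENHC and just missed the threshold (log2 -0.67 ± 0.26, adjusted p = 0.0581). It passed with the replicate block (adjusted p = 0.00668) and without HC 3 (-0.98). Otog (log2 -0.08 ± 0.20, adjusted p = 0.796) and Tectb (log2 0.42 ± 0.22, adjusted p = 0.158) did not pass, although Tectb did without ENHC 3 (0.67).

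Ion transport of dark cells and other nonsensory cells showed 0 higher (1 without HC 3) and 14 lower of 18, with a median of -1.79. Slc26a4 (pendrin), the anion exchanger whose loss enlarges the endolymph spaces, read 68, 50 and 59 in HC and 302, 379 and 305 in ENHC, 5.59-fold lower (log2 -2.48 ± 0.18, adjusted p = 2.74e-09) in HC. Kcne1, a subunit of the potassium channel that secretes into the endolymph, read 24, 32 and 40.3 in HC and 269, 188 and 251 in ENHC (log2 -2.90 ± 0.22, adjusted p = 4.06e-09), and Bsnd (barttin), of the chloride channels, 26, 80.1 and 33 in HC and 330.1, 382 and 225 in ENHC (log2 -2.90 ± 0.36, adjusted p = 3.06e-06). No HC array reached an ENHC array in any of the 3, although HC 2 was the highest HC array for Bsnd. Tmem176a, a membrane protein, was at least 14.9-fold lower (adjusted p = 2.43e-11) at 26, 36 and 34 in HC and 551, 769 and 455 in ENHC, and its neighbour Tmem176b was 8.93-fold lower (log2 -3.16 ± 0.22, adjusted p = 1.58e-09). The 2 kept probes of Tmem176a ran from -4.21 to -2.38, so its bound is that of the probe that represents it. Scnn1b, a subunit of the epithelial sodium channel, read 19.8, 19.9 and 21 in HC and 417, 284 and 309.6 in ENHC, at least 8.55-fold lower (adjusted p = 5.42e-12). The endocytic receptor gene Lrp2 was at least 6.96-fold lower (adjusted p = 6.29e-10), the water channel gene Aqp1 4.89-fold lower (log2 -2.29 ± 0.41, adjusted p = 0.00022) and the bicarbonate-linked enzyme gene Car12 2.36-fold lower (log2 -1.24 ± 0.28, adjusted p = 0.00173). Slc12a2, the transporter that feeds dark cells with potassium, gave 5683, 4578 and 3489.7 in HC and 5264, 3900.0 and 3362 in ENHC and did not pass (log2 0.13 ± 0.30, adjusted p = 0.781).

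Secreted and carrier proteins made another set on the ENHC side. Ttr (transthyretin), a carrier of thyroid hormone and retinol, read 27, 19 and 131 in HC and 1426, 1317 and 1856 in ENHC (log2 -5.21 ± 0.47, adjusted p = 6.01e-08), with HC 3 the only HC array that detects it (-6.05 without it). Ptgds, a prostaglandin synthase, read 26, 37 and 26 in HC and 420.4, 517 and 568 in ENHC, at least 12.8-fold lower (adjusted p = 5.57e-12) in HC. Gpx3, a secreted peroxidase, read 28, 23 and 27 in HC and 304, 348 and 405 in ENHC, at least 9.02-fold lower (adjusted p = 3.33e-10). The neurokinin receptor gene Tacr3 was at least 8.32-fold lower (adjusted p = 1.06e-10), at 21, 21 and 34 in HC and 279, 295 and 409.6 in ENHC. The 2 kept probes of Tacr3 ran from -3.73 to -2.63. For Ptgds, Gpx3 and Tacr3 the 3 HC arrays were at background.

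Keratins and epithelial surface genes were mostly lower in HC. Of 24 keratins and surface genes 0 were higher and 15 lower, with a median of -1.04, and of 20 claudins and tight junction genes 1 and 8. Without HC 3 the higher counts were 1 and 0. Krt18, a keratin of simple epithelia, read 461, 563 and 1382 in HC and 3871, 3225 and 4837 in ENHC, 5.52-fold lower (log2 -2.47 ± 0.33, adjusted p = 7.54e-06), and its partner Krt8 348, 262 and 668 in HC and 1446, 1469 and 1896 in ENHC, 4.04-fold lower (log2 -2.02 ± 0.29, adjusted p = 2.22e-05). HC 3 was the highest HC array for both, and without it the differences were -2.95 and -2.40. Cldn8, a barrier claudin, read 26, 25 and 43 in HC and 494, 511 and 559 in ENHC (log2 -4.10 ± 0.19, adjusted p = 5.16e-12), and Cldn11 148, 98 and 161 in HC and 1489, 1240.3 and 1227 in ENHC, 9.89-fold lower (log2 -3.31 ± 0.22, adjusted p = 7.94e-10). Cgnl1, a junctional plaque protein, was 10.6-fold lower (log2 -3.40 ± 0.30, adjusted p = 4.81e-08) and Dsg2, a desmosomal cadherin, 5.42-fold lower (log2 -2.44 ± 0.21, adjusted p = 2.9e-08, detected on 2 of 3 HC arrays). The sort gate gene Epcam was 1.61-fold lower (log2 -0.69 ± 0.24, adjusted p = 0.0303) at 1801, 1415 and 1754 in HC and 3332, 2339.7 and 2381 in ENHC, although both groups were selected as CD326-positive, so its level is no finding of the arrays. Its call was lost without HC 2 (-0.58) or ENHC 1 (-0.52). Mal, a protein of apical membrane traffic, read 79, 75 and 421 in HC and 1809, 2059 and 1447 in ENHC, 12.9-fold lower (log2 -3.69 ± 0.47, adjusted p = 4.46e-06), with -4.51 without HC 3.

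Cadherins split, with 6 higher and 6 lower of 23 (26.1% each, beside 16.8% and 17.7% of all genes tested). Pcdh8 read 839, 675 and 586 in HC and 19.8, 22 and 23 in ENHC, at least 16.8-fold higher (adjusted p = 1.36e-12), and Pcdh20 1148, 1336 and 918 in HC and 122, 192 and 272 in ENHC, 6.05-fold higher (log2 2.60 ± 0.27, adjusted p = 3.43e-07). Cdh2 (N-cadherin) was 2.23-fold higher (log2 1.16 ± 0.23, adjusted p = 0.000508), while Cdh1 (E-cadherin) was 2.18-fold lower (log2 -1.13 ± 0.28, adjusted p = 0.00385, 0.0981 with median scaling) and Cdh3 (P-cadherin), with 31, 29 and 32 in HC and 274, 238 and 231 in ENHC, was lower too (log2 -3.02 ± 0.16, adjusted p = 5.47e-11). The cadherin-type protein Celsr3, of the planar polarity family, was at least 6-fold higher (adjusted p = 8.96e-11). Of gap junction genes, Gja1 was 4.97-fold lower (log2 -2.31 ± 0.42, adjusted p = 0.000254) in HC at 91, 45 and 263 in HC and 424, 556 and 562 in ENHC, and Panx1, a pannexin, was 4.61-fold higher (log2 2.21 ± 0.31, adjusted p = 1.31e-05). Gjb2 and Gjb6, the connexins that join supporting cells, did not pass, with 827, 726 and 1442 in HC and 1063, 629 and 1263 in ENHC for Gjb2 (log2 0.01 ± 0.28, adjusted p = 0.979) and 828, 1254 and 1897 in HC and 849, 694 and 1087 in ENHC for Gjb6 (log2 0.54 ± 0.26, adjusted p = 0.127). HC 3 was the highest of the HC arrays for both connexins, and Gjb6 passed without HC 1 (0.84).

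Matrix and its receptors were lower in HC. Laminins, integrins and basement membrane genes were higher for 1 and lower for 16 of 28, with a median of -1.49, and glypicans and small proteoglycans for 1 and 14 of 21, with a median of -1.28. Hspg2 (perlecan) read 65, 32 and 95 in HC and 1329.7, 1085 and 1319 in ENHC (log2 -4.41 ± 0.39, adjusted p = 4.65e-08), and Col4a1, of the basement membrane network, 117, 95 and 227 in HC and 730.1, 938 and 996 in ENHC, 6.49-fold lower (log2 -2.70 ± 0.25, adjusted p = 7.83e-08). Itgb1, the common integrin beta chain, was 2.87-fold lower (log2 -1.52 ± 0.21, adjusted p = 1.16e-05), Lamb2 7.23-fold lower (log2 -2.85 ± 0.37, adjusted p = 5.92e-06) and Lamc1 4.81-fold lower (log2 -2.27 ± 0.22, adjusted p = 2e-07). Lama1 was the reverse, 75, 126 and 78 in HC and 29, 27 and 23 in ENHC, at least 2.19-fold higher (adjusted p = 2e-05). Matn4, a matrilin, read 1127, 737 and 1405 in HC and 11259.8, 6443 and 6672 in ENHC, 7.46-fold lower (log2 -2.90 ± 0.27, adjusted p = 7.54e-08). Its 2 kept probes ran from -2.90 to -1.11. Gpc3 read 250.3, 114 and 704 in HC and 2961, 2559.6 and 2851 in ENHC, 10.2-fold lower (log2 -3.36 ± 0.41, adjusted p = 3.16e-06), with -4.04 without HC 3, and Sdc2 136, 159 and 246 in HC and 1674, 1884 and 1785 in ENHC, 10.2-fold lower (log2 -3.35 ± 0.20, adjusted p = 1.56e-10). Ogn, a small proteoglycan, read 37, 26 and 29 in HC and 476, 416 and 483 in ENHC (log2 -3.92 ± 0.20, adjusted p = 2.41e-11). Mesenchyme and cartilage markers moved with these genes. Of 17 mesenchyme markers 9 were lower, with sums of 843 to 1260 in HC against 2670 to 3770 in ENHC. The ENHC arrays detected 10, 10 and 12 of the 17 and the HC arrays 5, 6 and 6, while 5 were undetected on all 6. Of 10 cartilage and bone markers 7 were lower, with sums of 4180 to 7440 against 15900 to 17400. Twist1, Pou3f4 and Pdgfrb, which mark mesenchyme, were undetected on all 6 arrays, and Col2a1, at 1049.5, 989 and 1827 in HC and 4157, 5769 and 4481 in ENHC, and Col9a1, at 1138, 1129.9 and 1648 in HC and 3884, 4057 and 3935 in ENHC, are known from the otic epithelium as well. The part of such cells in the matrix values was not tested.

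**Figure D5:**
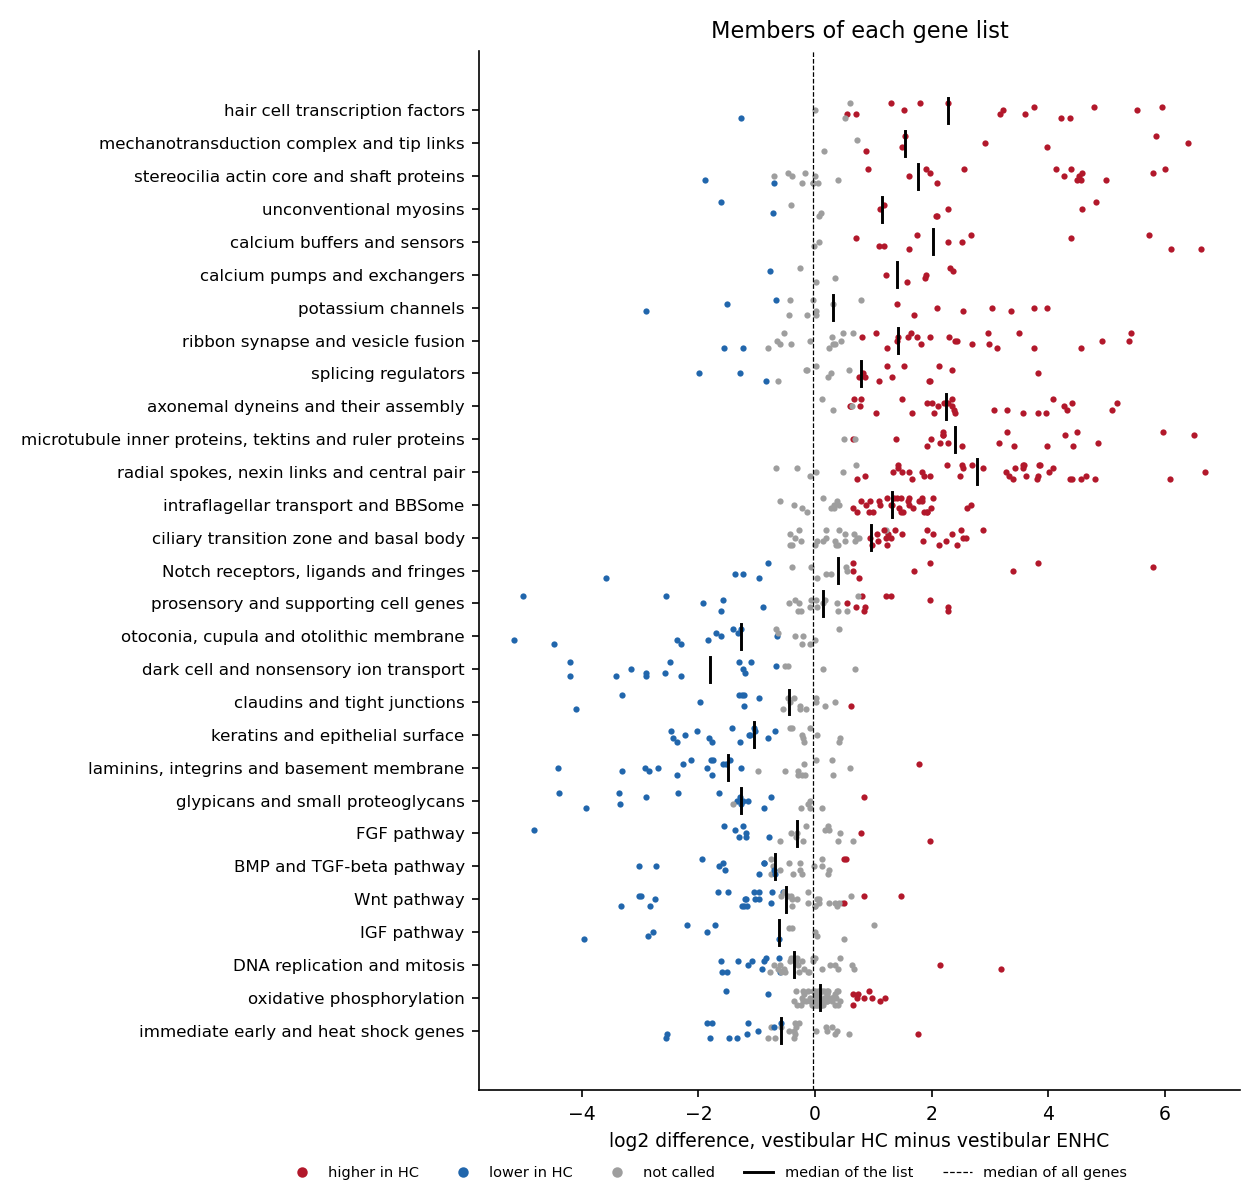
Log2 difference between vestibular HC and ENHC of the measured members of 29 gene lists, 1 point per gene, coloured by call, with the median of each list as a bar and that of all genes (-0.03) dashed. The 3 axoneme lists have no blue point, and the otoconia, dark cell and keratin lists have no red one.

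Growth factor pathways had more genes lower than higher in HC. In the FGF pathway 2 of 22 genes were higher and 8 lower, and without HC 3 the higher count was 5. Fgfr2, the receptor that otic morphogenesis depends on, read 66, 33 and 130.2 in HC and 1390.3, 2193 and 2075 in ENHC (log2 -4.82 ± 0.36, adjusted p = 3.95e-09, -5.31 without HC 3). Fgf10, a ligand of that receptor, was the reverse, 1318, 1304 and 1674 in HC and 313, 276 and 549 in ENHC, 3.93-fold higher (log2 1.98 ± 0.27, adjusted p = 1.36e-05) in HC. The ligand and its receptor were thus on opposite sides, with no overlap of arrays. Etv5, a target of FGF signalling, was 2.28-fold lower (log2 -1.19 ± 0.28, adjusted p = 0.00249, 0.0599 with median scaling). Of 13 IGF genes 0 were higher (1 with the replicate block) and 7 lower. Igf1 read 51, 67 and 100.3 in HC and 958, 1007 and 1327 in ENHC, 15.5-fold lower (log2 -3.96 ± 0.27, adjusted p = 1.08e-09), the binding protein gene Igfbp2 169.5, 187 and 179 in HC and 1174, 1255 and 1216 in ENHC, 6.82-fold lower (log2 -2.77 ± 0.20, adjusted p = 2.55e-09), and the adaptor gene Irs1 277, 197 and 694 in HC and 1213, 1299 and 1124 in ENHC, 3.61-fold lower (log2 -1.85 ± 0.32, adjusted p = 0.000159).

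In the BMP and TGF-beta pathway 2 of 27 genes were higher and 11 lower, with a median of -0.69, and 6 were lower with median scaling. Without HC 3, 0 were higher. Bmp7 read 73, 48 and 94 in HC and 396, 215 and 221 in ENHC, 3.84-fold lower (log2 -1.94 ± 0.34, adjusted p = 0.000179), and the BMP antagonist gene Grem1 29, 36 and 53 in HC and 293, 286 and 343 in ENHC (log2 -3.01 ± 0.23, adjusted p = 5.36e-09). Bmp4, which marks the cristae in the embryo, read 46, 21 and 81 in HC and 118, 161 and 107 in ENHC (log2 -1.57 ± 0.38, adjusted p = 0.00294). Wnt pathway genes were higher for 3 (1 without HC 3) and lower for 19 of 42, with a median of -0.50. Apcdd1, an inhibitor and target, read 302, 165 and 184 in HC and 2119.7, 2078 and 2089.6 in ENHC, 10-fold lower (log2 -3.32 ± 0.34, adjusted p = 2.68e-07), and the ligand gene Wnt3 22, 22 and 21 in HC and 128, 198 and 144 in ENHC, at least 3.97-fold lower (adjusted p = 4.4e-10). Tcf7l2, which carries the signal into the nucleus, read 83, 39 and 192 in HC and 494, 614 and 603 in ENHC (log2 -2.74 ± 0.42, adjusted p = 3.83e-05), and the feedback gene Axin2 was 2.26-fold lower (log2 -1.18 ± 0.24, adjusted p = 6e-04). Rspo2, an enhancer of the pathway, was at least 5.12-fold lower (adjusted p = 3.69e-10). The receptor gene Fzd4 went the other way, 102, 128 and 241 in HC and 43, 55 and 63 in ENHC, 2.77-fold higher (log2 1.47 ± 0.30, adjusted p = 0.000657). Of 15 retinoic acid genes 3 were higher (20%, beside 16.8% of all genes tested) and 5 lower (33.3%, beside 17.7%). The synthetic enzyme genes Aldh1a1 and Aldh1a2 read 57, 29 and 127 in HC and 1547, 1286 and 1568 in ENHC (log2 -4.62 ± 0.38, adjusted p = 1.93e-08) and 22, 39.7 and 28 in HC and 209, 298 and 184 in ENHC, at least 5.81-fold lower (adjusted p = 3.54e-07) for the second.

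Guidance and neurotrophic genes divided between the cell types, with 6 higher (13.3%) and 17 lower (37.8%) of 45, beside 16.8% and 17.7% of all genes tested. Bdnf, the neurotrophin that vestibular afferents depend on, read 509, 433 and 476 in HC and 21, 22 and 22 in ENHC, at least 11.4-fold higher (adjusted p = 3.26e-12). Sema6b read 767, 591 and 411 in HC and 26, 23 and 26 in ENHC, at least 13.8-fold higher (adjusted p = 8.24e-11), and Sema6d 3094, 3253 and 2518 in HC and 549, 709 and 781 in ENHC, 4.37-fold higher (log2 2.13 ± 0.19, adjusted p = 5.31e-08). On the ENHC side, Sema3c read 21, 21 and 33 in HC and 451, 591 and 566 in ENHC, at least 13.7-fold lower (adjusted p = 6.1e-10) in HC. Its 2 kept probes ran from -4.45 to -0.28, so this size holds for 1 probe only. Slit3 was at least 5.55-fold lower (adjusted p = 2.29e-09) and the receptor gene Unc5c, 40.3, 23 and 62 in HC and 256, 226 and 235 in ENHC, also lower (log2 -2.63 ± 0.31, adjusted p = 2.24e-06). Ephb4, at 183, 249 and 529 in HC and 1199, 1356 and 1283 in ENHC, was 4.42-fold lower (log2 -2.14 ± 0.28, adjusted p = 6.98e-06). Of 18 planar polarity genes 2 were higher (11.1%) and 3 lower (16.7%), no more than the 16.8% and 17.7% of all genes tested. The 2 were Celsr3 and Prickle2, which read 560.1, 669 and 381 in HC and 179, 69.8 and 119.6 in ENHC, 4.57-fold higher (log2 2.19 ± 0.27, adjusted p = 3.94e-06).

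Of 18 cell cycle inhibitors and D cyclins 3 were higher (16.7%, beside 16.8% of all genes tested) and 5 lower (27.8%, beside 17.7%). Cdkn2d, an inhibitor that keeps hair cells out of the cycle, read 2954, 2896 and 2111 in HC and 299.7, 293 and 298 in ENHC, 8.83-fold higher (log2 3.14 ± 0.19, adjusted p = 2.12e-10), and Rb1, the retinoblastoma protein gene, 781, 597 and 612 in HC and 187, 209 and 274 in ENHC, 2.98-fold higher (log2 1.58 ± 0.21, adjusted p = 8.31e-06). Ccnd2, a D cyclin, read 38, 46 and 84 in HC and 311, 439.9 and 609 in ENHC, 8.32-fold lower (log2 -3.06 ± 0.29, adjusted p = 1.13e-07) in HC, and Ccnd3 was 2.59-fold lower (log2 -1.37 ± 0.19, adjusted p = 1.1e-05). All 4 were apart between groups. Of 41 DNA replication and mitosis genes 2 were higher and 11 lower, with a median of -0.36, and 7 were lower with median scaling and 6 with the 6 arrays alone. Mcm5, of the replicative helicase, read 59, 165 and 53 in HC and 251, 203 and 281 in ENHC, 3.03-fold lower (log2 -1.60 ± 0.32, adjusted p = 0.000689), and Cenpa, of the centromere, 24, 49 and 49 in HC and 144, 92 and 100.1 in ENHC (log2 -1.50 ± 0.30, adjusted p = 0.000656). The helicase subunit gene Mcm6 was the reverse, 2101, 1811 and 1229 in HC and 501, 313 and 345 in ENHC, 4.42-fold higher (log2 2.14 ± 0.29, adjusted p = 8.23e-06), and so was Pole, a replicative polymerase, 213, 461 and 238 in HC and 36, 24 and 37 in ENHC, at least 6.93-fold higher (adjusted p = 1.68e-07).

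Few genes of oxidative phosphorylation were called. Of 73 measured, 9 were higher (12.3%) and 2 lower (2.74%), with a median of 0.09, beside 16.8% and 17.7% of all genes tested. Of 23 of glycolysis and creatine metabolism 6 were higher (26.1%) and 5 lower (21.7%). Ckmt1, the mitochondrial creatine kinase, read 1210.3, 1031 and 1007 in HC and 38, 62 and 95 in ENHC, 17.8-fold higher (log2 4.16 ± 0.33, adjusted p = 9.82e-09, detected on 2 of 3 ENHC arrays), Ckb, its cytosolic counterpart, 4035, 3381 and 3519 in HC and 1451, 1239 and 2098 in ENHC, 2.33-fold higher (log2 1.22 ± 0.23, adjusted p = 0.000374), and Eno2, the neuronal enolase, 907, 511 and 519.5 in HC and 96, 84 and 92 in ENHC, 6.89-fold higher (log2 2.79 ± 0.27, adjusted p = 1.39e-07). The HC and ENHC arrays were apart for all 3. Of 46 ribosomal protein genes 0 were higher and 7 lower (15.2%, beside 17.7% of all genes tested), a count that ran from 0 with median scaling to 16 without background correction. It was 12 with the replicate block, 4 without HC 2 or ENHC 1 and 3 without ENHC 3. Immediate early and heat shock genes, which respond to the dissociation of tissue, were higher for 1 (2 with the replicate block) and lower for 12 of 31, with a median of -0.58. Nr4a2 read 66, 140.1 and 115 in HC and 527, 636 and 625 in ENHC, 5.83-fold lower (log2 -2.54 ± 0.28, adjusted p = 9.23e-07) in HC, Atf3 94, 132 and 289 in HC and 471, 495 and 654 in ENHC, 3.5-fold lower (log2 -1.81 ± 0.32, adjusted p = 0.000197), and Hspb1, a small heat shock protein, 34, 36 and 66 in HC and 242, 267 and 252 in ENHC (log2 -2.56 ± 0.28, adjusted p = 8.45e-07). Hsph1, a chaperone of another family, was the reverse, 1408, 1569 and 1452 in HC and 278, 561 and 524 in ENHC, 3.4-fold higher (log2 1.77 ± 0.28, adjusted p = 6.57e-05).

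Beyond the axoneme, the organ comparison singled out genes whose HC to ENHC difference turned or grew between organs, and some of these are given here. Rai2 read 239, 448 and 261 in HC and 39.6, 52 and 43 in ENHC in the vestibular system, 6.83-fold higher (log2 2.77 ± 0.25, adjusted p = 7.04e-08), whereas its cochlear difference was -1.38, a distance of 4.16 (adjusted p = 4.55e-07). Dennd4a rose in vestibular HC (log2 2.16 ± 0.33, adjusted p = 3.52e-05) and gave -1.54 in the cochlea. In the other direction Matn4 was lower in vestibular HC and 1.43 in the cochlea, a distance of -4.33 (adjusted p = 5.07e-07). Pcp4l1, a calmodulin regulator, rose by 1.38 in the vestibular and 4.80 in the cochlear system. Nox3 and Tacr3 were detected on all 3 vestibular ENHC arrays and on no array of vestibular HC, cochlear HC or cochlear ENHC. Igf2, with 31, 25 and 37 in HC and 145, 102 and 181 in ENHC, fell by less in vestibular HC than its cochlear difference of -5.29 (adjusted p = 1.9e-06 for the distance). Of 19 otoconia and gel genes 8 had a vestibular difference more towards HC and 2 one more towards ENHC, beside 6.14% and 4.47% of all genes tested. Oc90 (3.90) and Otoa (3.53) were among the 8. Both fell by less in vestibular HC than in cochlear HC, where their differences were -6.25 and -4.85.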

How the data were processed

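Cells were sorted from inner ears of P1 mice, and RNA of 3 replicates per group was amplified and hybridised to Illumina MouseRef-6 v2.0 arrays. The authors deposited signal intensities per probe without normalization, each with a detection p-value from BeadStudio, and a second table of intensities that is the same data after quantile normalization (values differed by at most 0.29%). Both tables hold the 18 arrays of the labels and 0 further columns.

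The intensities were background-corrected by normexp from the detection p-values, given an offset of 16, quantile-normalized and put on the log2 scale with limma 3.58.1 in R 4.3.3. Of 45281 probes, 24352 were detected at p under 0.01 on at least 2 of 18 arrays. Platform annotation gave 34885 probes 1 symbol, 18 several and 10378 none, and only probes with 1 symbol were named. The kept probe with the highest mean stood for a gene, which matters for the 5126 genes with more than 1. A linear model of 6 group means was fitted to all 18 arrays with empirical Bayes moderation, so that the spread of non-epithelial arrays enters the errors. Tests were limma's, two-sided, with Benjamini-Hochberg adjustment over 12002 genes, and a call is an adjusted p under 0.05. All adjusted p-values in the text come from this fit unless another setting is named. The organ difference is the contrast of the 2 differences in the same fit. It is signed, so that larger means more towards HC in the vestibular system and smaller means more towards ENHC. A fold "at least" sets the mean of the side that is detected on all 3 arrays against the lowest detected signal of each array of the other side, or the probe's own signal where higher. The steps were tested on simulated data with known changes.

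Replicate numbers are shared by the groups in the labels. Deviations of same-numbered HC and ENHC arrays from their group means correlated at 0.273, 0.119 and 0.193. All were above the 0.1 that was set, so the numbers were treated as possible pairs. The reported values come from the fit without a block, which leaves such a pairing out. The fit with the number as a block is an alternative, given where it changes a call. The sources used here do not say whether a number marks a shared dissection.

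The comparison, the gene lists and the rule for named genes were chosen with earlier results of these data known. The rule took the genes with the largest differences, the largest bounds and the largest organ differences, and of each list the called members with the largest differences and members of known role. Not every gene that it took by largest difference or by organ difference is described. Stk26 and Dapl1 were taken out of the planar polarity list after their values were seen, because they had been listed by mistake. List members were matched by symbol and by a table of older names. Spmip6 of the axoneme lists was not matched there, and 1110017D15Rik, an older name of that gene, is described alone and not counted in those lists. Median with bounds means that genes with only a bound entered at that bound. Alternatives were other background, offset, scaling, filter, probe, variance and array choices and leaving out each array. Promoter windows came from a RefSeq table of GRCm38.p6.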

Additional observations from a re-analysis of the deposited data

Results flagged for a closer look

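The HC to ENHC difference was not the same in both organs, by the limma test of the vestibular difference minus the cochlear one, for 105 of the genes named above. Each value below is that distance on the log2 scale, and a positive value means a difference more towards HC in the vestibular system. For 38 of these genes, such as Nox3, Tacr3, Fam183b, Ppp1r32 and Cfap65, the same side was undetected in both organs, so that the distance rests on signals at background and is no exact size, while 32 were detected on all 12 HC and ENHC arrays. Both organs' arrays share the fit, and no explanation of a distance was tested.

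Genes of the axoneme had positive distances. Those over or near 2 were 3.88 for Dnah5, 2.82 for Ppp1r32, 2.55 for Ccdc114, 2.46 for Fam183b, 2.20 for Dnali1, 2.14 for Cfap65, 2.07 for Dydc1, 2.02 for Cfap45, 1.97 for Iqca, 1.87 for Ccdc151 and 1.86 for Ttc25. The others were 1.79 for Zmynd10, 1.78 for Dnaaf3, 1.66 for Spag16, 1.64 for Dnaic1, 1.62 for Dnah6, 1.57 for Armc4, 1.47 for Tekt1, 1.41 for Drc1, 1.38 for Dnah9, 1.26 for Ccdc39, 1.18 for Cfap52 and 0.71 for Spag6l. Genes of ciliary transport and kinesins gave 1.63 for Bbs5, 1.56 for Kif9, 1.24 for Ift88 and 0.97 for Kif3a. Adjusted p over these genes ran from 8.18e-08 to 0.0472.

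Among genes of the bundle, the synapse, calcium and the channels, the vestibular difference was more towards HC by 5.82 for Cib3, 3.00 for Dnajc5b, 2.73 for Ocm, 2.52 for Pls1, 2.46 for Kcnj2, 1.87 for Kcnab1, 1.73 for Sall3, 1.72 for Kcna10, 1.50 for Kcnma1 and 1.46 for Cabp2. It was less so by -2.02 for Slc8a1, -1.90 for Chrnb1, -1.48 for Scn11a, -1.42 for Cacna1d, -1.38 for Cacnb2, -1.06 for Adgrv1 and -0.97 for Calb1. Adjusted p ran from 1.27e-08 to 0.0309. Calb1 was undetected on the vestibular arrays.

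Of transcription factors and Id genes, the distance was 1.63 for Sox2, 1.61 for Isl1 and 1.18 for Sox9, and -3.57 for Insm1, -1.80 for Barhl1, -1.47 for Pax2, -1.24 for Id1, -1.22 for Otx2 and -1.01 for Atoh1. Insm1 was undetected on the vestibular arrays. Notch pathway genes gave 2.92 for Dner and 1.48 for Lfng, and -3.36 for Dlk1, -1.64 for Mfng and -1.28 for Dll3. Adjusted p ran from 9.74e-09 to 0.0315.

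Genes of the otoconia, membranes, dark cells and junctions lay both ways. Positive distances, with a vestibular difference less towards ENHC, were 3.90 for Oc90, 3.53 for Otoa, 3.04 for Cldn11, 2.18 for Tectb, 1.15 for Otog, 1.14 for Pls3 and 1.04 for Lrp2. Negative ones, with a difference more towards ENHC, were -4.49 for Nox3, -3.51 for Tacr3, -2.83 for Gpx3, -2.75 for Tmem176a, -2.69 for Sbspon, -2.65 for Scnn1b, -2.52 for Tmem176b, -2.28 for Bsnd, -1.94 for Kcne1, -1.40 for Cdh3, -1.14 for Cldn8 and -1.11 for Dsg2. Adjusted p ran from 7.47e-08 to 0.0397.

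Matrix genes gave 3.46 for Gpc3, 1.34 for Ogn and 1.33 for Lama1, and -4.33 for Matn4, -1.94 for Lamb2, -1.49 for Sdc2 and -1.13 for Lamc1. Growth factor, Wnt and retinoic acid genes gave 3.34 for Bmp4, 3.10 for Igf2, 2.50 for Fgf10, 1.81 for Rspo2 and 1.77 for Slit3, and -2.92 for Grem1, -2.88 for Wnt3, -2.77 for Aldh1a1, -2.66 for Aldh1a2 and -1.90 for Igfbp2. Adjusted p ran from 5.07e-07 to 0.0257.

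The remaining distances were 3.35 for Pcdh20, 2.65 for Sema6b, 2.58 for Sema6d, 2.39 for Prickle2 and 2.09 for Stmn2 among adhesion, guidance and neuronal genes. They were 4.16 for Rai2, 3.70 for Dennd4a, 3.18 for Pole and 1.22 for 1110017D15Rik, and -3.41 for Pcp4l1 and -1.46 for Ccnd2, among the others. Adjusted p ran from 4.55e-07 to 0.0268. Stmn2 was undetected on the 6 vestibular arrays. Groups of 3 arrays are too small for a check of single arrays that stand apart.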

How the results depend on the processing

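Of 861 counts of called genes over all alternatives, 841 lay within 1.5 times the reported count and 20 did not. Of 4871 values of single named genes, 4805 kept their direction and their side of the threshold, 49 lost the call, 16 gained it and 1 reversed. With median scaling 1353 genes were lower in HC in place of 2122, and the lower counts became 6 for the BMP and TGF-beta pathway, 7 for DNA replication and mitosis and 0 for ribosomal proteins. With the 6 arrays fitted alone the counts were 5 higher for Notch, 6 higher for prosensory genes, 6 lower for DNA replication and 2 lower for ribosomal proteins, and with the 9 vestibular arrays 5 higher for Notch. Fewer arrays entered these fits. The ribosomal count was also 16 without background correction and with the authors' normalized values, 13 with an offset of 50 and with ordinary variance, 12 without the detection filter, 14 with robust variance and a trend, and 12 with the replicate block. The causes were not tested. The replicate block gave 2324 genes higher and 2513 lower, against 2020 and 2122, and the list counts that it moved by over 1.5 times, the ribbon synapse (6 lower against 2) and ribosomal proteins (12 against 7) among them, are given beside those lists. Among the genes named here, the block changed the calls of Emx2 and Otol1. Fscn2 turned from -0.71 to 2.18 (adjusted p = 9.71e-10 in limma's fit) with the mean of all kept probes.

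Leaving out 1 array in turn gave 1731 to 2091 genes higher and 1824 to 2167 lower. It gave 591 to 743 genes with a larger and 438 to 546 with a smaller difference in the vestibular system, 82 to 86 axoneme genes higher, 6 to 10 prosensory genes higher (6 without ENHC 1) and 3 to 8 ribosomal genes lower. Calls lost without 1 array are named beside the genes.

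Each side had 3 arrays of pooled mice, so the p-values measure the spread between pools. Signals near background have a compressed fold, and a gene undetected on these arrays has no level here. Most named genes rest on 1 probe, and probes of a gene can differ, as for Fscn2, Tmc1, Ush1c, Sox2, Sema3c, Chrng, Matn4, Xirp2, Cfap206, Tmem176a, Tacr3, Calb2 and Kcnab1. The spread between probes is given for some genes only. HC 3 had more ENHC marker signal than the other HC arrays, and without it the differences of ENHC genes were larger for those given above. The part that carried-over RNA has in HC values of ENHC genes was not tested.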
